A study of Triticum aestivum with 18 samples.

Results

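The last 300 high-confidence genes of wheat chromosome 4A (Chr 4A) are the 300 with the highest identifier numbers among the 4861 high-confidence genes of that chromosome, running from TraesCS4A02G469700 to TraesCS4A02G499928. They stand among 107892 high-confidence genes in all. Of the 300, 75 reached 1 CPM, counts scaled to a common library size, in at least 1 of 18 libraries and could be tested, among 62692 such genes in the genome. The members were selected on their identifiers and, for the tested ones, on the highest CPM over the libraries. The end of this chromosome was chosen with earlier results of these data known, so the values below describe it. The libraries came from Nanda and Sadash, a pair of spring wheat genotypes of which Nanda forms many embryos in microspore culture and Sadash few. In each genotype, 3 biological replicates were sequenced of the microspores themselves (Day 0), of proembryos (Day 7) and of the embryo-like structures, or ELSs, that followed by Day 21. All groups came from spikes that had been cold-treated before the microspores were isolated, and each library was made from the total RNA of pooled microspores or the structures grown from them. The Day 21 structures were of mixed size and development. In such bulk samples, fewer cells of a type and less RNA per cell cannot be told apart.

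Bread wheat is hexaploid, and most of its genes exist as homoeologous copies on the A, B and D subgenomes. The distal part of the long arm of Chr 4A is known for its history of rearrangement, since it carries a segment from the short arm of chromosome 7B by an ancient translocation. Distal ends of wheat chromosomes are rich in genes of fast-changing families and differ more between cultivars than the interior does. Microspore embryogenesis, or androgenesis, redirects an immature pollen grain to divide as an embryo, and it is used to make doubled haploid lines. Identifiers of the annotation follow the order along the chromosome, so position is given here as the order of the identifier, not as a distance. Reads of both genotypes were aligned to a single reference sequence, so a gene that a genotype lacks, one whose sequence differs from the reference and one that is less transcribed cannot be told apart in these values.

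The libraries held between 6675262 and 27463269 counts in high-confidence genes, both extremes being Sadash ELS libraries. Pearson's r between replicates, across genes, was at least 0.974 except in Sadash proembryos, where the lowest was 0.939. Markers of pollen, of embryogenic development and of late embryos were in the order of the labelled stages, except that 1 proembryo library also held genes of the ELS stage. The anther marker TraesCS4A02G203700, of the TPD1 type, ran otherwise. It had at most 0.0714 CPM in microspores, but 85.4 to 114 CPM in Nanda and 38.3 to 96.7 CPM in Sadash proembryos. TraesCS7B02G278400, of the GAMYB type that acts in pollen development, had 43.7 to 51.3 CPM in Nanda and 17.7 to 26.4 CPM in Sadash microspores, and at most 0.0593 CPM in Nanda and 0.416 CPM in Sadash ELSs. Of the same type, TraesCS3A02G336500 was lower in Nanda than in Sadash microspores, with 17.2 to 19.1 CPM against 30.6 to 32.3 CPM. This second gene kept 3.71 to 5.10 CPM in Nanda ELSs and 1.17 to 1.43 CPM in Sadash ELSs. TraesCS3D02G389100, matched to the embryogenic factor BABY BOOM, had at most 0.0727 CPM in the microspores of Nanda and no counts in those of Sadash. It had 37.0 to 40.4 CPM in Nanda proembryos and 50.5 to 75.3 CPM in Sadash proembryos. Nanda Day 7 replicate 3 stood apart from its group in 3 genes that were high on Day 21, with 49.4 CPM of the 1-Cys peroxiredoxin gene TraesCS2D02G154300, where the group median was 0.576 CPM, and with 13.8 and 15.3 CPM of the vicilin-type storage protein genes TraesCS4A02G296000 and TraesCS5D02G440000, where the medians were 0.00 and 0.158 CPM. Without that library, 39 members were lower and 7 higher in Nanda on Day 7, 10 were called in Nanda between Days 0 and 7 and 18 between Days 7 and 21, and 0 and 9 in the interactions of genotype and stage over these intervals. On Day 21 TraesCS4A02G296000 had 121 to 135 CPM in the Nanda libraries, against 10.7 CPM in replicate 2 and 119.7 CPM in replicate 1 of Sadash, the lowest and highest there. Without Sadash Day 21 replicate 1 or 2, 25 or 27 members were lower and 6 higher in Nanda on Day 21. The part of these libraries' makeup in the results was not tested.

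The 300 genes together took a smaller share of the transcripts in Nanda than in Sadash at every stage. Their summed level on Day 0 was 301, 285 and 275 CPM in the Nanda libraries, against 928, 838 and 913 CPM in the Sadash libraries. On Day 7 it was 262, 233 and 254 CPM in Nanda, against 958, 985 and 1031 CPM in Sadash. On Day 21 it was 360, 376 and 381 CPM in Nanda, against 933, 901 and 899 CPM in Sadash. No Nanda library overlapped a Sadash library at any stage, and the highest Nanda library lay well below the lowest Sadash library. The ratio of the means, Nanda over Sadash, was 0.321 on Day 0, 0.252 on Day 7 and 0.408 on Day 21. A large part came from 1 gene, TraesCS4A02G472200, which held 23.3% of the summed normalized CPM over the 18 libraries. Without it, the sums were 233 ± 11.9, 203 ± 9.77 and 328 ± 13.9 CPM in Nanda on Days 0, 7 and 21 (SD, n = 3), against 700 ± 42.1, 792 ± 51.7 and 592 ± 29.1 CPM in Sadash. Of the 300 genes, 64 to 86 had a count in a Nanda library and 69 to 99 in a Sadash library. Such numbers depend on depth, and the 69 came from the library with the fewest counts, Sadash Day 21 replicate 2.

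**Figure D1:**
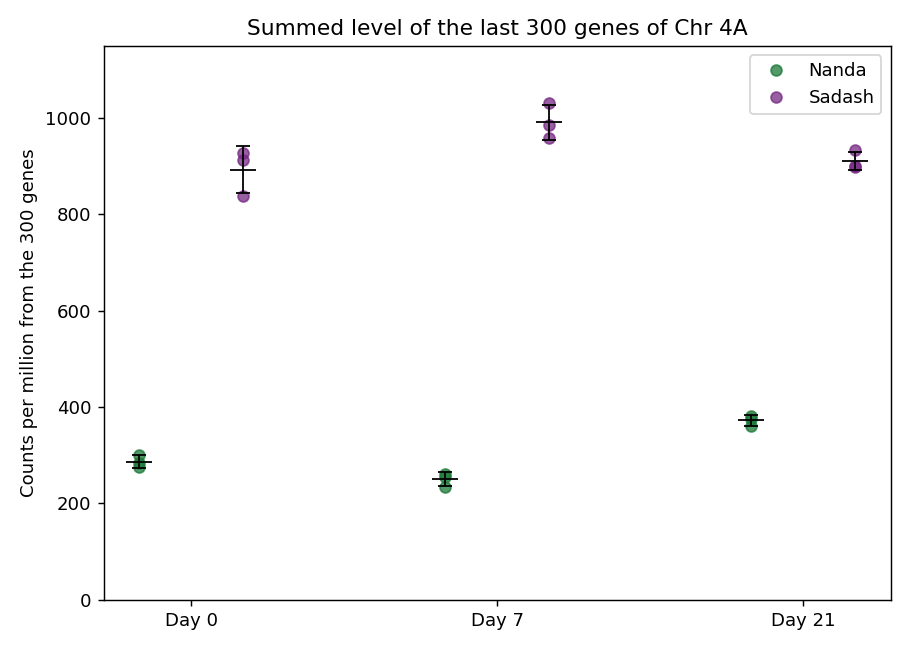
Summed CPM of the last 300 genes of Chr 4A in each of 18 libraries by day, with Nanda left of Sadash. Points are libraries, and the bars give the mean and SD of 3 replicates. The Nanda libraries lay between 233 and 381 CPM and the Sadash libraries between 838 and 1031 CPM.

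Expression was sparse along this chromosome end. The 75 tested genes are 25.0% of the 300, against 58.8% of the 4561 other high-confidence genes of Chr 4A. Of the 225 untested genes, 133 had no count in any library and 92 had counts that stayed under 1 CPM. The genes nearest the filter on the inside were TraesCS4A02G483300, TraesCS4A02G482900 and TraesCS4A02G477800, with highest values of 1.04, 1.07 and 1.20 CPM. Nearest on the outside were TraesCS4A02G494300, TraesCS4A02G488100 and TraesCS4A02G493500, with 0.971, 0.970 and 0.970 CPM. The longest stretch without a tested gene held 67 identifiers, from TraesCS4A02G486500 to TraesCS4A02G493100, of which 24 had counts, at up to 0.970 CPM. The next longest, from TraesCS4A02G479200 to TraesCS4A02G480800, held 17.

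The filter was not passed alike through both genotypes. Of the 75 tested genes, 44 reached 1 CPM in both genotypes, 22 in Sadash only and 9 in Nanda only. Those 22 and 9 genes are 29.3% and 12.0% of the tested members, whereas the corresponding shares among all tested genes were 6.44% and 5.58%. A gene that passed through 1 genotype alone was bound to be low in the other, so calls are given below for both kinds.

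Many of the tested genes were lower in Nanda at each stage, and few were higher. A gene was called when the quasi-likelihood test of edgeR gave a Benjamini-Hochberg adjusted p under 0.01 and its absolute log2 fold change reached 1. On Day 0 (NS_D0), 37 of 75 were lower and 7 higher in Nanda, where 5.12% of all tested genes were lower and 5.44% higher, together 10.6%. On Day 7 (NS_D7), 40 were lower and 7 higher, against 6.03% and 6.78% of all genes, together 12.8%. On Day 21 (NS_D21), 28 were lower and 8 higher, against 5.60% and 6.96%, together 12.6%. The median log2 fold change of the tested members was -1.77 on Day 0, -2.21 on Day 7 and -1.02 on Day 21, and that of all tested genes 0.00, 0.04 and 0.00. With genes lacking counts in 1 group set to their bound, the medians of the members were -1.77 on Day 0 and -1.88 on Day 7. When the Day 7 fit used only the libraries compared, 26 genes were lower and 4 higher.

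Calls were not confined to genes that passed through 1 genotype. Of the 44 members with at least 1 CPM in both, 24, 26 and 19 were lower in Nanda on Days 0, 7 and 21, which is 54.5%, 59.1% and 43.2%, and 1, 1 and 3 were higher. Among all 55156 tested genes with at least 1 CPM in both genotypes, 4.81%, 5.42% and 5.43% were lower and 4.72%, 6.27% and 6.26% higher. Of the 22 members that passed through Sadash only, 13, 14 and 9 were lower in Nanda, which is 59.1%, 63.6% and 40.9%. Among all 4039 genes of that kind, 13.7%, 19.4% and 12.7% were lower. Of the 9 members that passed through Nanda only, 6, 6 and 5 were higher, which is 66.7%, 66.7% and 55.6%. Among all 3497 such genes, 23.0%, 22.4% and 25.7% were higher.

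No member was called in opposite directions at different stages. Of the 75 tested genes, 54 were called in at least 1 of the 3 genotype comparisons, 43 of them lower and 11 higher in Nanda, and 0 were called both ways. For these counts the shares of all tested genes were not worked out, so they do not set the members apart from the genome. Lower at all 3 stages were 25 genes, as were 0.882% of all tested genes, and 5 were higher at all 3 stages, as were 1.39%. In 23 genes all 9 Nanda libraries lay below all 9 Sadash libraries, a pattern of 0.943% of all tested genes, and in 4 genes they lay above, a pattern of 1.53%. Those 4 genes stayed under 1 CPM in every Sadash library, and some of the 23 did so in every Nanda library. By the filter, such genes were bound to be low in 1 genotype. Of the 5 genes higher at all 3 stages, only TraesCS4A02G475000 passed the filter through both genotypes, and the others passed through Nanda alone. Among the 25 lower genes, TraesCS4A02G473800, TraesCS4A02G474000, TraesCS4A02G475200, TraesCS4A02G475300, TraesCS4A02G479100, TraesCS4A02G486400, TraesCS4A02G497800 and TraesCS4A02G499300 passed through Sadash alone. The shares of all tested genes given here were not split by the genotype through which a gene passed. The remaining 21 tested genes were called in none of the genotype comparisons.

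**Figure D2:**
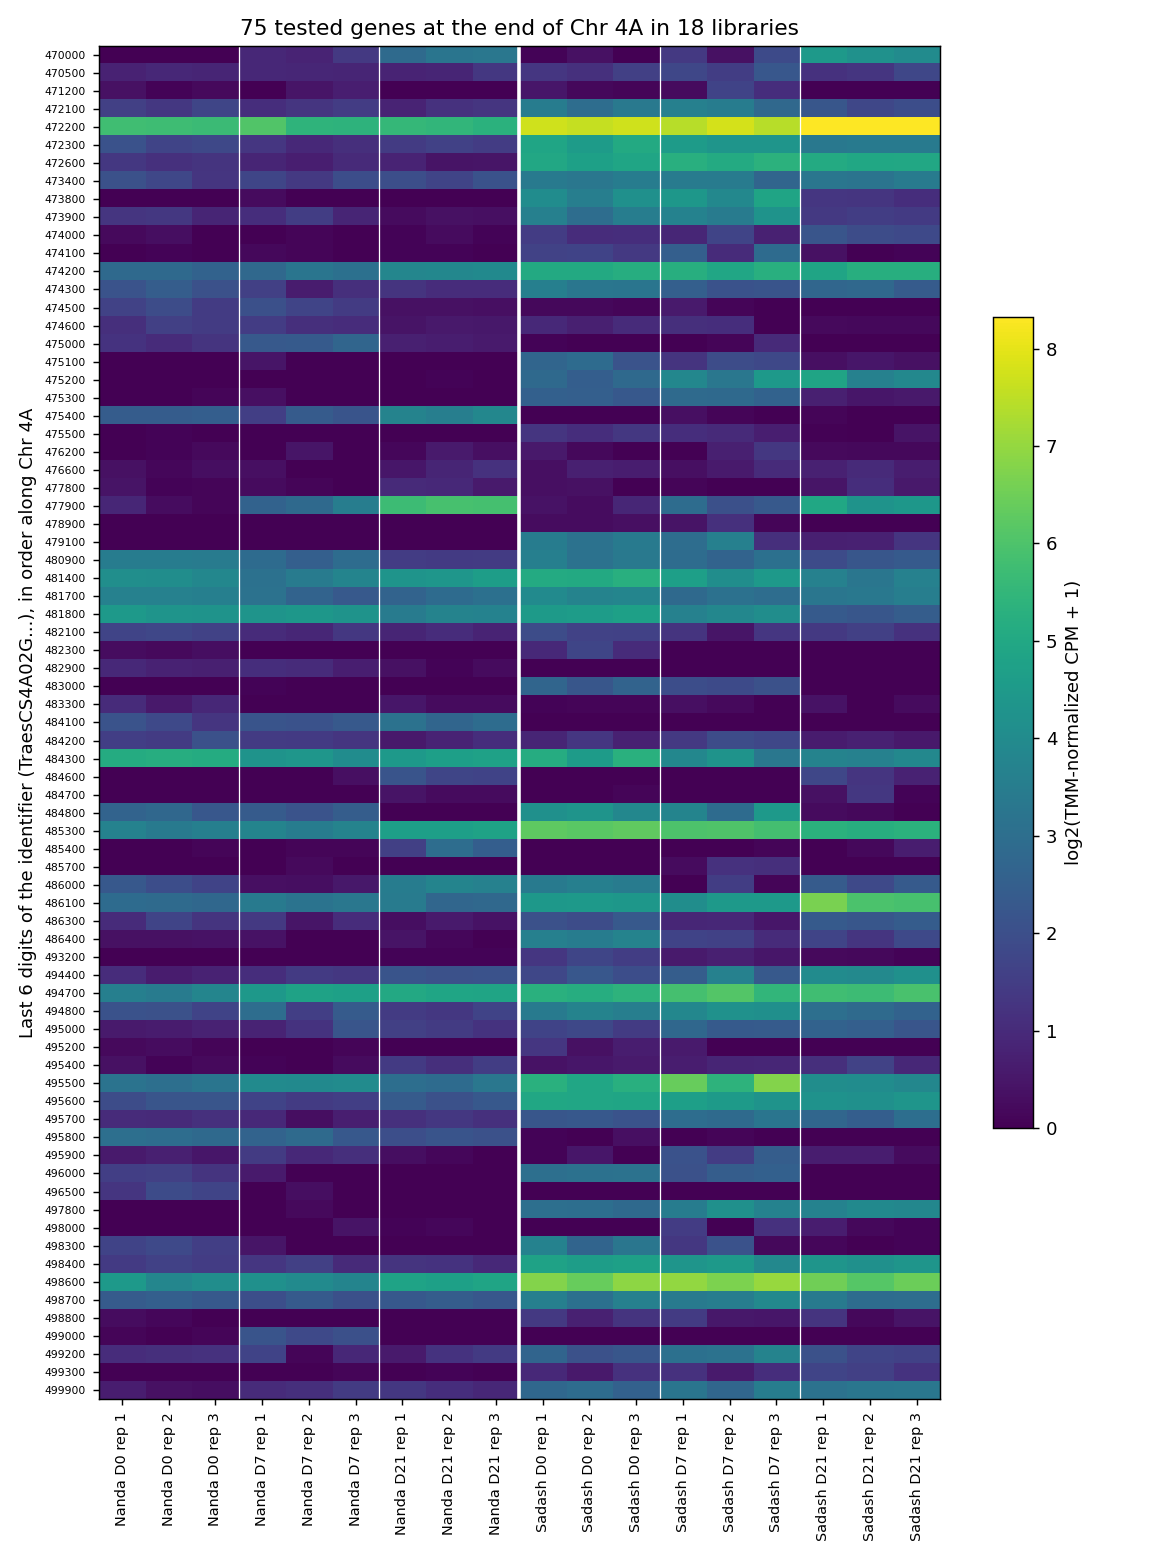
Level of the 75 tested genes (rows, in identifier order) in 18 libraries (columns, Nanda left of the thick white line and Sadash right of it), as log2 of TMM-normalized CPM plus 1. Of the 75 genes, 23 were lower in all 9 Nanda than in all 9 Sadash libraries and 4 were higher, including genes that passed the filter through 1 genotype alone.

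The longest run of neighbours that were lower in Nanda began near the inner edge. Between TraesCS4A02G472100 and TraesCS4A02G474300, a span of 23 identifiers, all 11 tested genes were lower in Nanda on Day 0 and on Day 7. On Day 21, the 8 tested genes from TraesCS4A02G472100 to TraesCS4A02G474000 were lower. Some of these calls lay near the threshold and were lost when any 1 of several libraries was left out. On Day 0 the edgeR adjusted p of TraesCS4A02G474000 was 0.013, 0.018 and 0.019 without Nanda replicate 1, Nanda replicate 3 or Sadash replicate 1, and that of TraesCS4A02G474300 was 0.015, 0.028, 0.027 and 0.010 without these or Sadash replicate 3. On Day 21 that of TraesCS4A02G472100 was 0.023, 0.010 and 0.025 without Nanda replicate 1, Nanda replicate 2 or Sadash replicate 1.

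The most abundant member was TraesCS4A02G472200, annotated to cytoplasmic translation, the making of proteins on ribosomes of the cytosol. In Nanda it had 53.9, 52.4 and 50.6 CPM on Day 0, 65.4, 41.8 and 41.1 CPM on Day 7, and 46.2, 43.6 and 38.6 CPM on Day 21 (TMM-normalized, as for all gene levels below). In Sadash it had 211, 191 and 209 CPM on Day 0, 174, 221 and 171 CPM on Day 7, and 320, 317 and 317 CPM on Day 21. Every Nanda library lay below every Sadash library, with log2 fold changes, Nanda over Sadash, of -1.96 (SE 0.15), -1.93 (SE 0.15) and -2.89 (SE 0.16). The edgeR adjusted p-values were 2.6e-08, 3.1e-08 and 2.3e-10. Per transcript length it was further ahead of the other members, with 41.4% of their summed TPM, a unit that scales counts by length and library size.

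TraesCS4A02G472300 is matched to an Arabidopsis protein that binds the TOUSLED kinase, which acts in leaf and flower development. Its Nanda levels were 3.27, 2.30 and 2.52 CPM on Day 0, 1.47, 0.951 and 1.18 CPM on Day 7, and 1.72, 2.06 and 1.78 CPM on Day 21. The Sadash levels were 28.7, 22.6 and 32.4 CPM, then 22.5, 19.2 and 19.3 CPM, then 9.18, 9.72 and 9.60 CPM. The genotypes did not overlap at any stage, although the Sadash level on Day 21 had come down to less than that of Day 7, and the log2 fold changes were -3.37 (SE 0.20), -4.06 (SE 0.22) and -2.35 (SE 0.20). The edgeR adjusted p-values were 7.1e-10, 2.1e-10 and 7.5e-08.

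The transcripts of TraesCS4A02G472300 were also split differently between its isoforms, an observation chosen after its values were seen. The second of its transcripts took 6.69%, 9.26% and 3.93% of the estimated counts in Nanda on Days 0, 7 and 21, against 41.0%, 54.4% and 51.2% in Sadash. Single libraries of Nanda had 0.00% to 19.5%, and single libraries of Sadash 35.4% to 62.4%. In Nanda the shares rest on few counts, on Day 7 on 44.0 of the first and 4.49 of the second transcript over 3 libraries, and they are estimates of RSEM, with no test.

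TraesCS4A02G472600, a gene without annotation in the tables at hand, was steady in Sadash and low in Nanda. It had 1.53, 1.25 and 1.38 CPM in Nanda on Day 0, against 30.9, 25.6 and 28.7 CPM in Sadash. On Day 7 it had 0.831, 0.634 and 0.998 CPM in Nanda, against 37.3, 33.2 and 40.2 CPM in Sadash. By Day 21 it had 0.771, 0.354 and 0.382 CPM in Nanda, against 32.7, 29.9 and 30.5 CPM in Sadash. The genotypes lay far apart at each stage, with log2 fold changes of -4.36 (SE 0.20), -5.48 (SE 0.22) and -5.92 (SE 0.23) and edgeR adjusted p-values of 4.0e-11, 5.1e-12 and 2.7e-12.

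TraesCS4A02G473400, annotated to mRNA splicing by the spliceosome, is the only member that belongs to a triad of A, B and D copies in the tables at hand, with TraesCS5B02G340900 and TraesCS7D02G015500. In Nanda it had 3.20, 2.40 and 1.46 CPM on Day 0, 2.37, 1.58 and 2.90 CPM on Day 7, and 2.97, 2.24 and 3.24 CPM on Day 21. In Sadash it had 9.72, 8.92 and 10.4 CPM, then 10.0, 10.0 and 5.62 CPM, then 8.62, 8.15 and 9.97 CPM. Its log2 fold changes were -2.03 (SE 0.29), -1.90 (SE 0.30) and -1.66 (SE 0.29), with edgeR adjusted p-values of 5.0e-05, 0.00011 and 0.00021.

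The homoeologs of TraesCS4A02G473400 were not called between the genotypes. On the TPM scale, which allows copies of different length to be set side by side, the A copy gave 4.95%, 4.70% and 7.14% of the triad in Nanda on Days 0, 7 and 21, against 16.2%, 14.8% and 16.9% in Sadash. The highest Nanda library had 8.26% and the lowest Sadash library 10.5%. The D copy carried most of the triad, with 89.6, 91.6 and 92.1 TPM in Nanda and 106, 107 and 92.2 TPM in Sadash. Its log2 fold changes, from the counts, were -0.20 (SE 0.11), -0.0024 (SE 0.11) and -0.27 (SE 0.11), and those of the B copy 0.08 (SE 0.35), -0.86 (SE 0.37) and 0.15 (SE 0.37). The edgeR adjusted p of these 6 values was at least 0.078.

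The other members of the run that stood at 5 CPM or more in a group behaved alike in direction. TraesCS4A02G473800 had no counts in Nanda apart from 1 library on Day 7, at 0.192 CPM, whereas Sadash had 15.4, 10.9 and 17.1 CPM on Day 0, 20.1, 13.9 and 28.3 CPM on Day 7 and 1.51, 1.43 and 1.15 CPM on Day 21. Taken against a floor of 3 counts in each Nanda library, it was at least 71.0-fold lower in Nanda on Day 0 and at least 7.50-fold lower on Day 21. On Day 7 the Sadash level was 275 times the Nanda level, with a 95% counting interval of 93.8 to 1337 from 3 counts in Nanda. The edgeR adjusted p-values were 1.0e-07, 1.1e-07 and 4.3e-05.

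TraesCS4A02G474200 was lower in Nanda at each stage. Nanda had 6.18, 6.26 and 5.20 CPM on Day 0, 6.01, 8.48 and 7.35 CPM on Day 7 and 13.0, 13.6 and 14.6 CPM on Day 21, against 32.0, 32.4 and 35.8 CPM, 36.4, 29.6 and 36.9 CPM and 27.9, 36.5 and 36.4 CPM in Sadash. The log2 fold changes were -2.50 (SE 0.16), -2.24 (SE 0.16) and -1.29 (SE 0.15), with edgeR adjusted p-values of 2.4e-09, 8.1e-09 and 3.4e-06. Neither the interactions nor the transitions of this gene were called, the interaction from Day 7 to Day 21 being 0.95 (SE 0.22). TraesCS4A02G472100, TraesCS4A02G473900 and TraesCS4A02G474300 were called lower in Nanda at the 3 stages too, with log2 fold changes from -1.35 to -3.41. TraesCS4A02G474000 was low throughout, with no more than 0.250 CPM in any Nanda library and 0.702 to 3.63 CPM in the Sadash libraries.

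Just beyond the run lay genes in which the genotypes differed almost as presence from absence, in both directions. TraesCS4A02G475200 had a count in only 1 of 9 Nanda libraries, at 0.0589 CPM on Day 21. Sadash had 6.26, 4.64 and 6.17 CPM on Day 0, 13.4, 8.90 and 21.3 CPM on Day 7 and 28.3, 11.7 and 13.8 CPM on Day 21. It was at least 27.9-fold lower in Nanda on Day 0 and at least 62.2-fold lower on Day 7, with edgeR adjusted p-values of 3.8e-06 and 5.8e-07. On Day 21 the Sadash level was 1048 times that of Nanda, with a 95% counting interval of 188 to 41442 from a single count.

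TraesCS4A02G475300 and TraesCS4A02G475100, on either side, had at most 0.256 and 0.384 CPM in a Nanda library. In Sadash TraesCS4A02G475300 had 4.90, 4.71 and 3.85 CPM on Day 0, 6.42, 6.18 and 5.13 CPM on Day 7 and 0.642, 0.429 and 0.483 CPM on Day 21, and it was called lower in Nanda at each stage. TraesCS4A02G475100 had 5.58, 6.50 and 3.43 CPM in Sadash on Day 0 and at most 0.429 CPM there on Day 21. It was called lower in Nanda on Days 0 and 7, with edgeR adjusted p-values of 2.8e-05 and 0.0016, and not on Day 21, with an edgeR adjusted p of 0.013.

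TraesCS4A02G475400, the next identifier, ran the other way. It had 4.36, 4.41 and 4.55 CPM in Nanda on Day 0, against no counts in Sadash. The Day 7 levels were 1.92, 4.28 and 3.45 CPM in Nanda, against 0.257, 0.0754 and 0.00 CPM in Sadash. The Day 21 levels were 12.1, 10.8 and 13.4 CPM in Nanda, against 0.0756, 0.00 and 0.00 CPM in Sadash. It was at least 19.7-fold higher in Nanda on Day 0 (edgeR adjusted p = 8.6e-07), and its log2 fold change on Day 7 was 4.84 (SE 0.59, edgeR adjusted p = 1.5e-05). The Nanda level on Day 21 was 302 times that of Sadash, with a 95% counting interval of 83.2 to 2498 from 2 counts. TraesCS4A02G475000 and TraesCS4A02G474500 were also higher in Nanda at all 3 stages, at up to 5.53 and 3.13 CPM in a Nanda library.

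TraesCS4A02G479100 was the only tested gene without a single count in Nanda and with a mean of at least 1 CPM in a Sadash group, a pattern of 0.343% of all tested genes. Sadash had 10.4, 7.78 and 9.59 CPM on Day 0, 6.85, 11.5 and 1.19 CPM on Day 7 and 0.642, 0.715 and 1.45 CPM on Day 21. The Day 7 libraries were spread widely, and 1 of them lay below the highest library of Day 21. The gene was at least 45.4-fold, 27.8-fold and 5.15-fold lower in Nanda at the 3 stages, with edgeR adjusted p-values of 7.7e-05, 0.00017 and 0.0047. The last of these was 0.014 to 0.018 when any Nanda library or Sadash replicate 3 of Day 21 was left out.

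**Figure D3:**
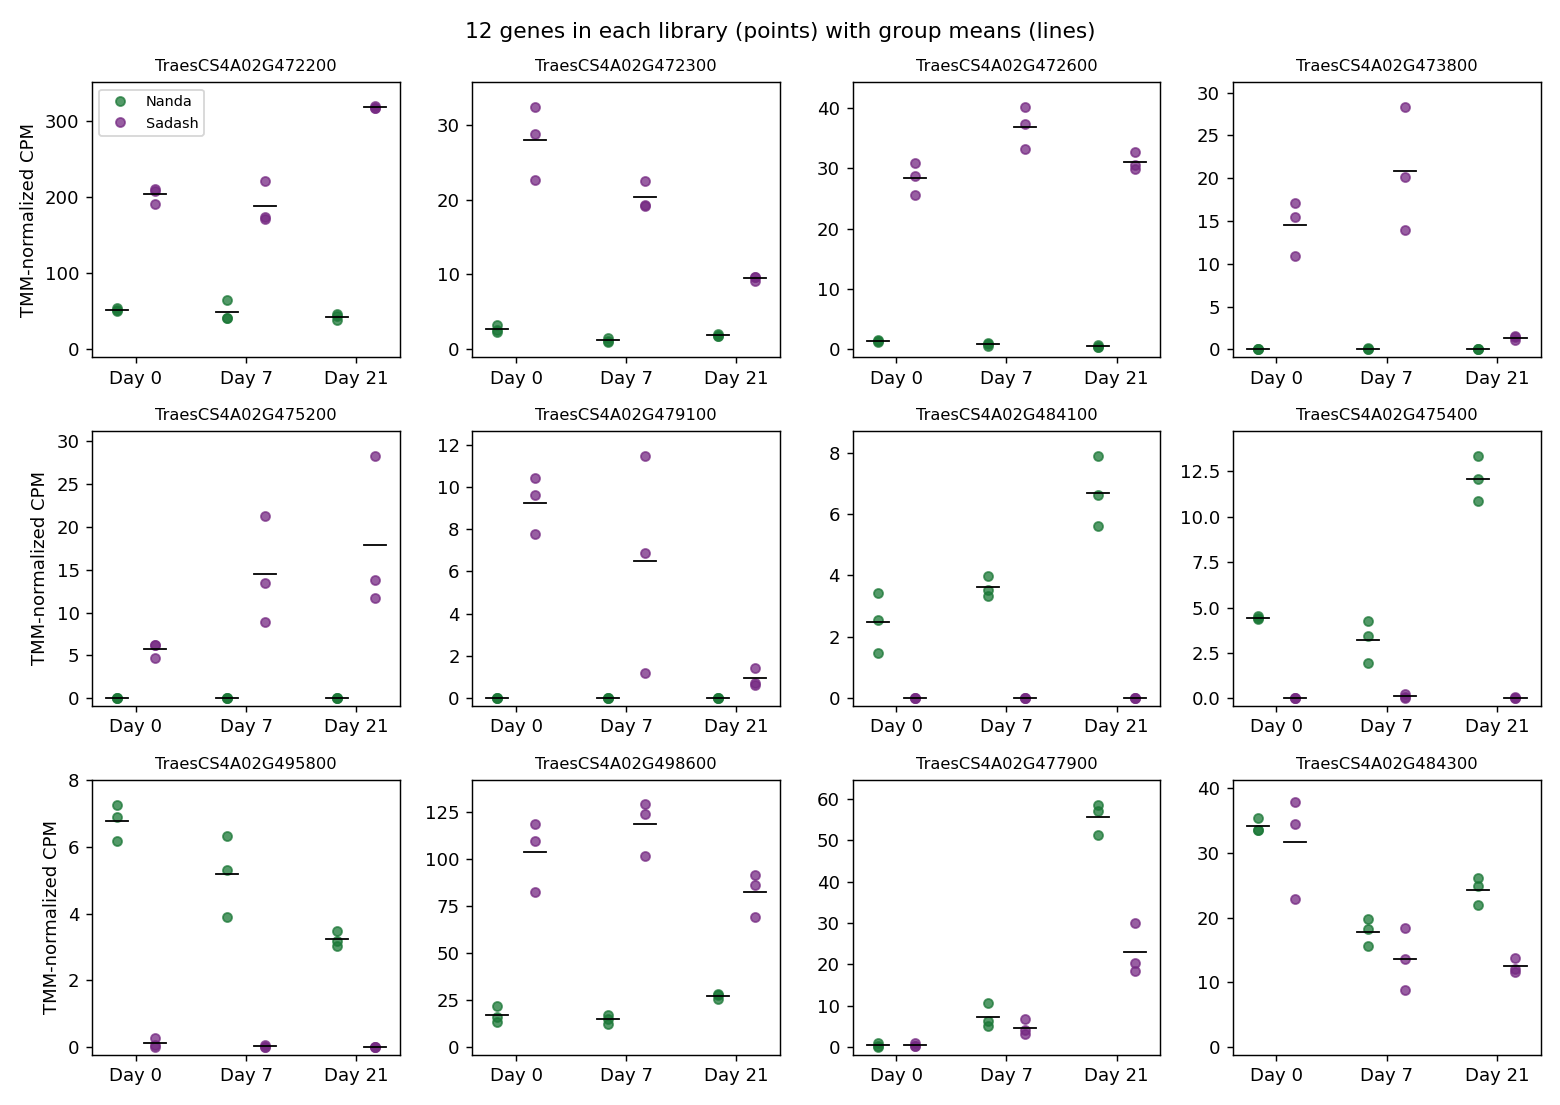
TMM-normalized CPM of 12 members in each library (points) by day, Nanda left of Sadash, with group means as lines and a separate linear axis for each gene. TraesCS4A02G472200 lay between 38.6 and 65.4 CPM in Nanda and between 171 and 320 CPM in Sadash, whereas TraesCS4A02G484100 had counts in Nanda libraries only.

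The middle of the region, from TraesCS4A02G480900 to TraesCS4A02G484800, held 8 of the 21 tested members that were called in none of the genotype comparisons. Of the 15 tested genes in this block of 50 identifiers, the third, 3, 3 and 1 were lower in Nanda on Days 0, 7 and 21 and 2 were higher at each stage. TraesCS4A02G480900, annotated to mitochondrial pyruvate transport, which feeds pyruvate from glycolysis into respiration, had 10.4, 10.4 and 9.92 CPM in Nanda on Day 0, against 11.2, 7.78 and 9.34 CPM in Sadash. On Day 7 it had 6.52, 4.75 and 6.71 CPM in Nanda, against 6.68, 5.35 and 7.37 CPM in Sadash. The genotypes overlapped at both stages, with log2 fold changes of 0.12 (SE 0.21) and -0.11 (SE 0.22). On Day 21 it had 1.78, 1.65 and 1.72 CPM in Nanda, against 2.76, 3.72 and 4.11 CPM in Sadash, and was called lower in Nanda (-1.02, SE 0.24, edgeR adjusted p = 0.0030). That call was lost without any 1 of 8 libraries, with -0.87 without Sadash Day 21 replicate 3.

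TraesCS4A02G481700, annotated to protein methylation, was called in no comparison, with 3.99 to 11.7 CPM in the Nanda libraries and 6.25 to 14.7 CPM in the Sadash libraries. The largest of its 3 genotype differences was -0.57 on Day 21 (SE 0.21, edgeR adjusted p = 0.050). TraesCS4A02G484300, the seventh most abundant member, had 33.5, 35.3 and 33.5 CPM in Nanda on Day 0, against 34.4, 22.8 and 37.9 CPM in Sadash, where the libraries overlapped. On Day 21 it had 22.0, 24.9 and 26.2 CPM in Nanda, against 12.1, 11.6 and 13.7 CPM in Sadash, and the difference of 0.96 on the log2 scale (SE 0.22, edgeR adjusted p = 0.0022) fell just short of the fold required. TraesCS4A02G481800 had 10.0, 12.1 and 11.9 CPM in Nanda on Day 21, against 4.12, 3.72 and 4.53 CPM in Sadash, and was called higher (1.45, SE 0.16, edgeR adjusted p = 1.2e-06), but was not called on Day 0 or Day 7.

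TraesCS4A02G484100, within the same block, had 3.42, 2.55 and 1.46 CPM in Nanda on Day 0, 3.52, 3.33 and 3.99 CPM on Day 7 and 7.89, 5.60 and 6.61 CPM on Day 21. No Sadash library held a count of it. It was at least 11.0-fold, 15.6-fold and 27.8-fold higher in Nanda, with edgeR adjusted p-values of 1.4e-05, 6.9e-06 and 1.0e-06. With TraesCS4A02G496500 and TraesCS4A02G499000 it made up the 3 members without Sadash counts and with a mean of at least 1 CPM in a Nanda group, a pattern of 0.512% of all tested genes. TraesCS4A02G496500 had its highest level on Day 0, with 2.14 ± 0.64 CPM (SD, n = 3), and at most 0.238 CPM in a Nanda library of another stage. TraesCS4A02G499000 had 3.52, 2.61 and 3.08 CPM in Nanda on Day 7 and at most 0.0813 CPM in a Nanda library of another stage.

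Further out, TraesCS4A02G485300, TraesCS4A02G486100 and TraesCS4A02G486400 were lower in Nanda but differed in how they changed with stage. TraesCS4A02G485300 had 11.9, 9.86 and 11.1 CPM in Nanda on Day 0, 12.4, 10.2 and 12.3 CPM on Day 7 and 25.2, 24.8 and 26.7 CPM on Day 21. In Sadash it had 75.9, 72.0 and 76.8 CPM, then 62.5, 64.8 and 56.4 CPM, then 39.2, 36.6 and 38.6 CPM. Nanda lay below Sadash throughout, while the distance shrank by Day 21. The log2 fold changes were -2.77 (SE 0.12), -2.39 (SE 0.12) and -0.58 (SE 0.11), and the last of these missed the required fold (edgeR adjusted p = 1.9e-11, 8.0e-11 and 0.00059).

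TraesCS4A02G486100 ran the other way, with 6.54, 6.41 and 5.85 CPM in Nanda on Day 0, 9.85, 8.08 and 8.89 CPM on Day 7 and 10.1, 5.72 and 6.10 CPM on Day 21. In Sadash it had 20.6, 21.3 and 20.4 CPM, then 16.1, 21.8 and 21.6 CPM, then 99.6, 61.9 and 59.4 CPM. The genotypes were furthest apart on Day 21, when the log2 fold change was -3.34 (SE 0.23, edgeR adjusted p = 3.7e-09), after -1.72 (SE 0.22) on Day 0 and -1.15 (SE 0.22) on Day 7. TraesCS4A02G486400 had at most 0.356 CPM in a Nanda library, against 11.4, 10.2 and 12.2 CPM in Sadash on Day 0, 2.23, 2.04 and 1.05 CPM on Day 7 and 2.27, 1.43 and 2.60 CPM on Day 21. It was called lower in Nanda at the 3 stages.

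After the long stretch of untested identifiers, calls resumed. On Day 0 the 6 tested genes that follow each other from TraesCS4A02G486400 to TraesCS4A02G495000, a span of 87 identifiers, were lower in Nanda. The outermost of them, TraesCS4A02G495000, lost its call without any 1 of the 6 libraries of that day (edgeR adjusted p = 0.012 to 0.034). TraesCS4A02G494400, annotated to amino acid metabolism, had 1.09, 0.551 and 0.732 CPM in Nanda on Day 0, 1.15, 1.66 and 1.54 CPM on Day 7 and 3.44, 3.18 and 3.31 CPM on Day 21. In Sadash it had 2.38, 3.78 and 2.91 CPM, then 4.45, 11.6 and 4.00 CPM, then 15.2, 14.3 and 17.0 CPM. It was lower in Nanda at each stage, with log2 fold changes of -1.95 (SE 0.40), -2.21 (SE 0.37) and -2.23 (SE 0.34) and edgeR adjusted p-values of 0.0014, 0.00019 and 5.3e-05. On Day 0 the edgeR adjusted p was 0.015 and 0.011 without Nanda replicate 2 or 3. Neither transition was called in Nanda (0.89 and 1.20 on the log2 scale, edgeR adjusted p = 0.088 and 0.011). In Sadash the rise by Day 7 (1.14, SE 0.34) was lost without any 1 of 16 libraries, with 0.48 without Day 7 replicate 2, and the rise by Day 21 (1.21, SE 0.32) without any 1 of 4.

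TraesCS4A02G494700, the fourth most abundant member, had 11.1, 9.96 and 12.9 CPM in Nanda on Day 0, against 38.1, 35.1 and 41.2 CPM in Sadash. On Day 7 it had 20.8, 26.5 and 25.3 CPM in Nanda, against 58.0, 67.5 and 43.5 CPM in Sadash, and on Day 21 it had 31.6, 28.6 and 28.4 CPM, against 53.9, 51.3 and 60.7 CPM. It was called lower in Nanda on Day 0 (-1.75, SE 0.16, edgeR adjusted p = 2.1e-07) and on Day 7 (-1.22, SE 0.16, edgeR adjusted p = 1.2e-05). On Day 21 all Nanda libraries were still below those of Sadash, but the log2 fold change of -0.91 (SE 0.15) missed the required fold. TraesCS4A02G494800 was called lower in Nanda at the 3 stages, with log2 fold changes of -1.91, -1.86 and -1.79.

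Next to each other, TraesCS4A02G495500, TraesCS4A02G495600 and TraesCS4A02G495700 were lower in Nanda at all 3 stages, and TraesCS4A02G495800 was higher. On Day 21 the log2 fold change of TraesCS4A02G495500 was just past the required fold (SE 0.25, edgeR adjusted p = 0.0051), and the call was lost without any 1 of 7 libraries, with -0.91 without Nanda Day 21 replicate 2. TraesCS4A02G495600 had 2.83, 3.60 and 3.58 CPM in Nanda on Day 0, against 30.3, 29.7 and 28.8 CPM in Sadash, and a log2 fold change of -3.14 (SE 0.17, edgeR adjusted p = 3.1e-10). On Day 7 it had 2.17, 1.74 and 1.90 CPM in Nanda, against 25.0, 22.5 and 18.3 CPM in Sadash, and on Day 21 it had 4.27, 3.18 and 3.88 CPM, against 17.9, 17.0 and 19.3 CPM. TraesCS4A02G495700, annotated to DNA modification, had 0.238 to 1.53 CPM in the Nanda libraries and 3.43 to 8.43 CPM in the Sadash libraries, without overlap. Its log2 fold changes were -1.77 (SE 0.33), -3.52 (SE 0.35) and -2.13 (SE 0.31), with edgeR adjusted p-values of 0.00052, 6.5e-07 and 4.1e-05.

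TraesCS4A02G495800 is annotated to gene silencing by regulatory non-coding RNA, the pathway through which small RNAs lower the activity of matching genes. It had 7.27, 6.91 and 6.18 CPM in Nanda on Day 0, 5.31, 6.34 and 3.90 CPM on Day 7 and 3.03, 3.48 and 3.18 CPM on Day 21. Sadash had 0.068, 0.00 and 0.257 CPM on Day 0, 0.00, 0.0754 and 0.00 CPM on Day 7 and no counts on Day 21. Every Nanda library was above every Sadash library. The log2 fold change on Day 0 was 5.97 (SE 0.56, edgeR adjusted p = 7.1e-07), and on Day 21 it was at least 13.4-fold higher in Nanda (edgeR adjusted p = 8.0e-07). The Nanda level on Day 7 was 205 times that of Sadash, with a 95% counting interval of 36.5 to 8154 from 1 count.

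Among the outermost genes, TraesCS4A02G497800 and TraesCS4A02G498400 were called lower in Nanda at all 3 stages. TraesCS4A02G497800 had counts in 1 of 9 Nanda libraries, at 0.158 CPM on Day 7, whereas Sadash had 7.28, 7.07 and 6.25 CPM on Day 0, 10.4, 17.0 and 11.9 CPM on Day 7 and 11.9, 14.4 and 13.4 CPM on Day 21. It was at least 33.6-fold lower in Nanda on Day 0 and at least 72.9-fold lower on Day 21, with edgeR adjusted p-values of 1.3e-07 and 1.9e-08. TraesCS4A02G498400 had 0.954 to 2.05 CPM in the Nanda libraries and 13.8 to 26.5 CPM in the Sadash libraries, with log2 fold changes of -3.77 (SE 0.23), -3.60 (SE 0.23) and -3.92 (SE 0.23).

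TraesCS4A02G498600 was second in abundance, with 9.88% of the summed level. In Nanda it had 21.7, 13.1 and 15.9 CPM on Day 0, 17.2, 14.9 and 12.5 CPM on Day 7 and 27.5, 25.5 and 28.2 CPM on Day 21, against 109, 82.2 and 119 CPM, 124, 102 and 129 CPM and 91.5, 69.1 and 86.2 CPM in Sadash. All Nanda libraries lay below all Sadash libraries, with log2 fold changes of -2.62 (SE 0.19), -2.99 (SE 0.19) and -1.61 (SE 0.18) and edgeR adjusted p-values of 1.0e-08, 2.2e-09 and 2.1e-06. TraesCS4A02G499900, the last tested identifier, had 0.244 to 1.72 CPM in the Nanda libraries and 5.05 to 10.6 CPM in the Sadash libraries. Its log2 fold changes were -3.95 (SE 0.37), -2.67 (SE 0.32) and -2.81 (SE 0.31).

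**Figure D4:**
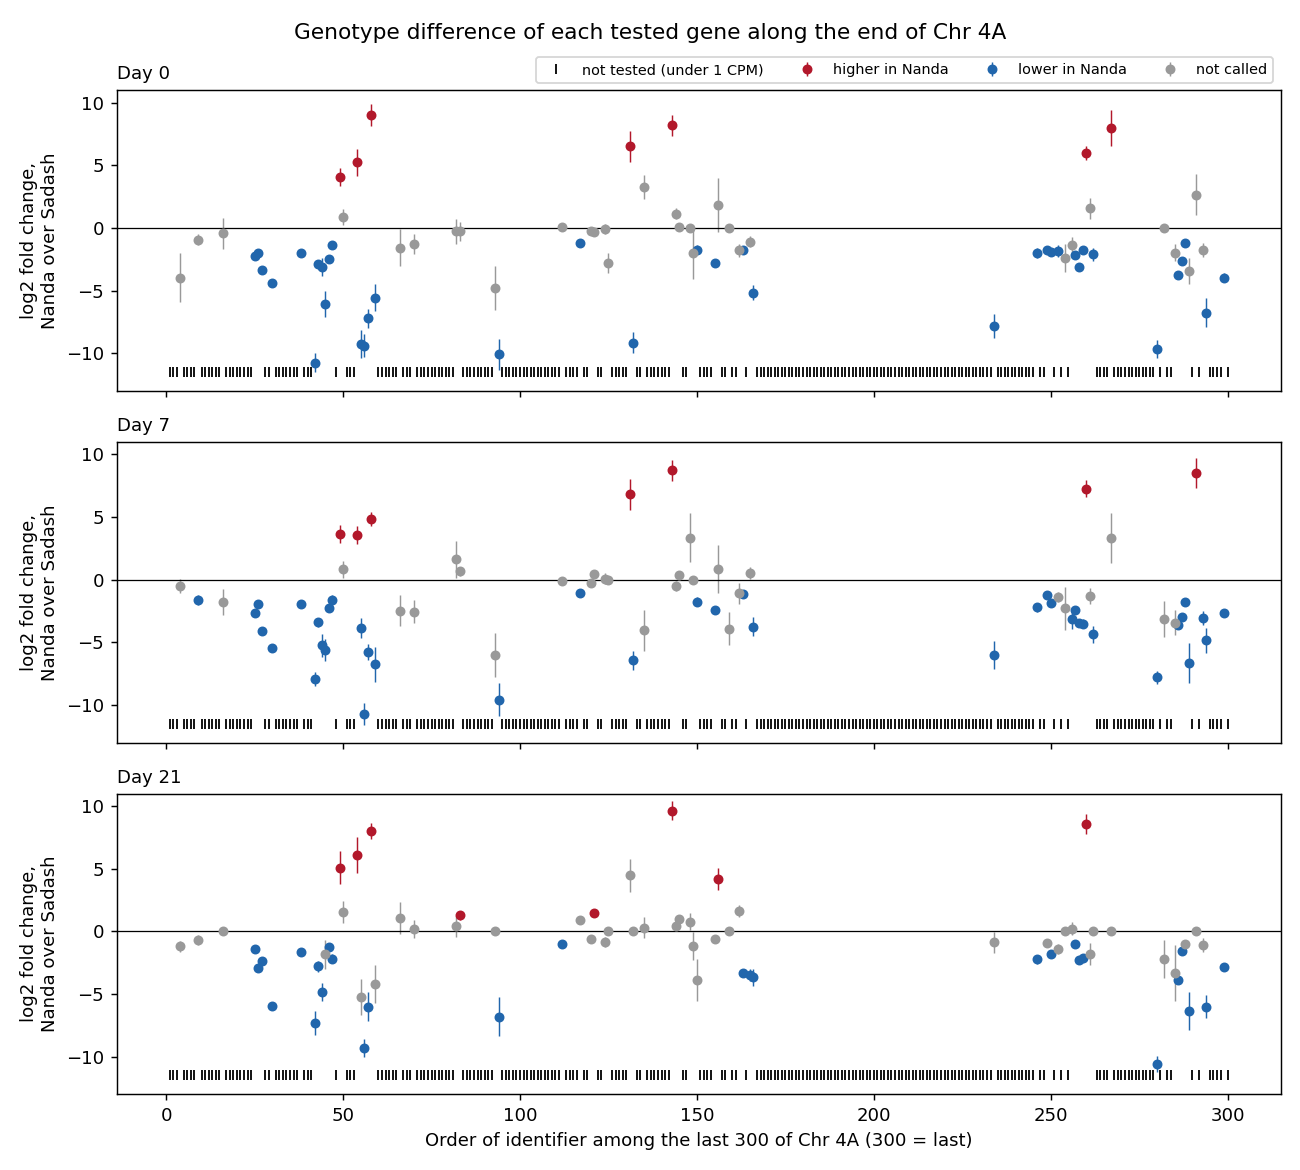
Log2 fold change, Nanda over Sadash, of each tested gene against the order of its identifier on Days 0, 7 and 21, with bars of 1 standard error from edgeR and black ticks for the 225 untested identifiers. Genes lower in Nanda (37, 40 and 28) occur along the region on both sides of the gap of 67 untested identifiers, and the size of a fold against a group without counts depends on the prior count of the fit.

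By blocks of 50 identifiers from the inner to the outer end, the genes lower in Nanda on Day 0 were 11 of 16, 5 of 12, 3 of 15, 3 of 7, 4 of 4 and 11 of 21 tested. On Day 7 they were 12, 5, 3, 3, 4 and 13, and on Day 21 they were 10, 3, 1, 3, 2 and 9. The third block held the smallest share at each stage. In the 300 identifiers that come before, 95 genes were tested, of which 19, 19 and 13 were lower in Nanda on Days 0, 7 and 21 and 11, 9 and 15 were higher. On Days 0 and 7 the lower calls there were most frequent next to the region, with 5 of 12 tested genes among the nearest 50 identifiers. In the third block of 50 inwards from the region, 7, 7 and 10 of 22 tested genes were higher in Nanda. Over the whole rest of Chr 4A, 5.82%, 6.08% and 6.60% of tested genes were lower.

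**Figure D5:**
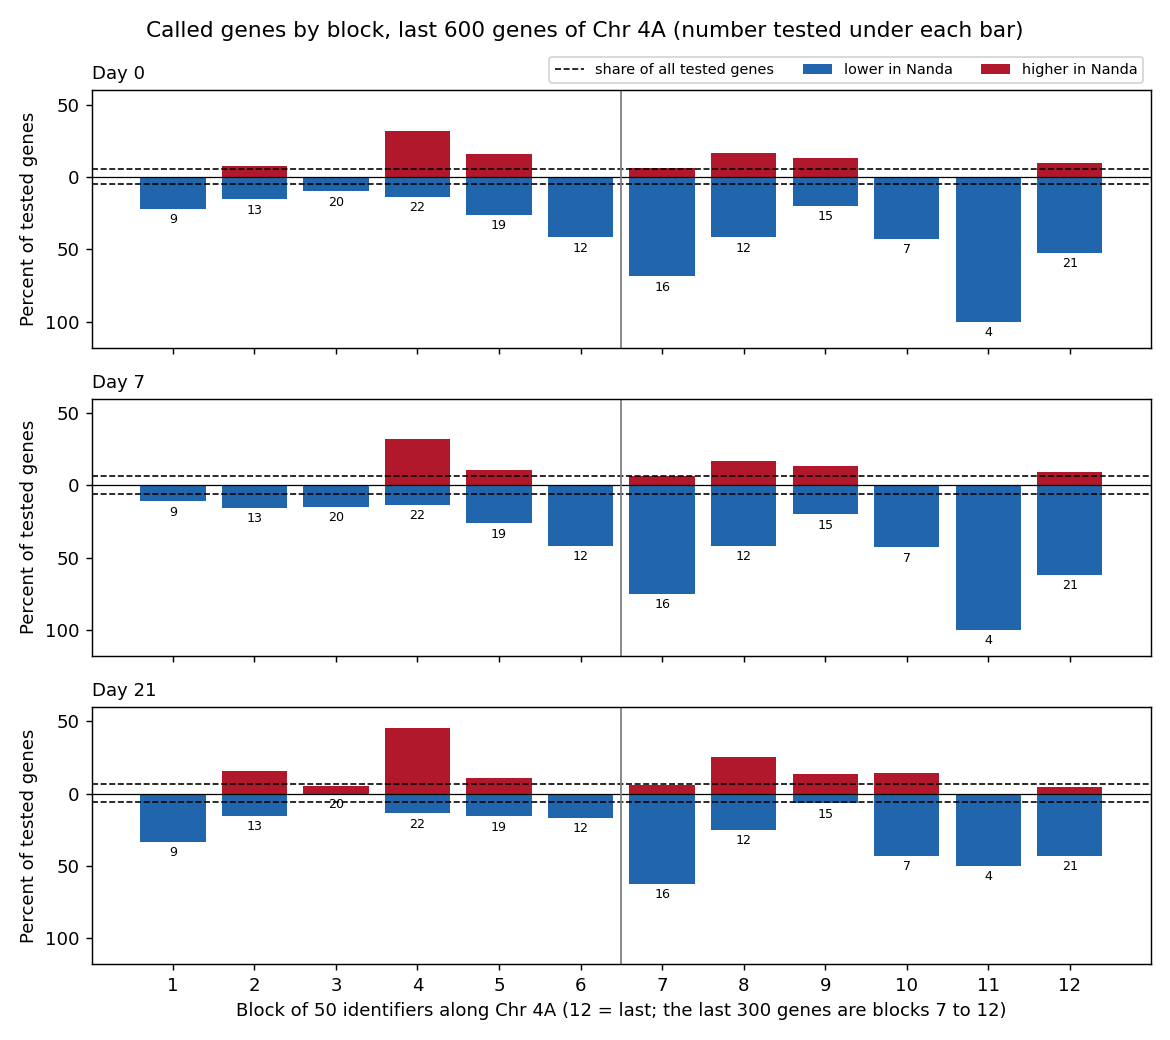
Percent of tested genes called higher (upwards, red) or lower (downwards, blue) in Nanda than in Sadash in 12 blocks of 50 identifiers at the end of Chr 4A, on Days 0, 7 and 21. Dashed lines give the shares among all tested genes (5.44% and 5.12% on Day 0), and the last 300 genes lie right of the grey line, where the innermost block had 11 of 16 genes lower on Day 0.

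Among the last 300 genes of the other 20 chromosomes, the share of tested genes lower in Nanda ran from 2.33% to 54.7% on Day 0, from 2.53% to 59.9% on Day 7 and from 1.74% to 46.7% on Day 21. The shares of 49.3%, 53.3% and 37.3% on Chr 4A were exceeded only by those of chromosome 2D. The share higher in Nanda was largest at the end of chromosome 1D, at 47.7%, 48.3% and 47.1%. Between 24.0% and 57.3% of the identifiers could be tested at those ends.

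The low-confidence genes of Chr 4A, a separate set of gene models that took no part in the choice, were looked at after the other values were seen. Among their last 300 identifiers, 21 could be tested, of which 8, 8 and 4 were lower in Nanda on Days 0, 7 and 21 and 3, 4 and 4 were higher. Among all tested low-confidence genes, 6.41%, 8.90% and 5.54% were lower and 6.19%, 5.55% and 8.79% higher. How their span lies relative to that of the high-confidence members is not given by the identifiers.

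In 3 of the 4 transitions between stages, called changes were less frequent among the members than in the genome. In Nanda, 6 of the 75 tested genes rose and 7 fell between microspores and proembryos (ND7_D0), where 18.5% of all tested genes rose and 15.2% fell, together 33.7%. From proembryos to ELSs (ND21_D7), 10 rose and 8 fell, where 15.8% rose and 18.3% fell in the genome, together 34.1%. In Sadash, 7 rose and 7 fell by Day 7 (SD7_D0), against 16.0% and 12.0%, together 28.0%. By Day 21 (SD21_D7), 8 rose and 21 fell, against 16.8% and 18.4%, together 35.2%, and this was the only transition in which the share of members that fell, 28.0%, stood above the background. Over both genotypes, 48 of 75 members were called in at least 1 of the 4 transitions. The share of all tested genes with such a call was not worked out, so this count has no background. The count in SD7_D0 was 8 when the fit used only the libraries compared, 3 of them higher, and 9 without replicate 1 of Sadash Day 0.

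TraesCS4A02G477900 and TraesCS4A02G470000 climbed through both transitions in both genotypes. TraesCS4A02G477900 had 0.872, 0.200 and 0.0813 CPM in Nanda on Day 0, 5.12, 6.26 and 10.6 CPM on Day 7 and 51.2, 58.6 and 57.0 CPM on Day 21. Sadash had 0.340, 0.214 and 0.857 CPM, then 6.76, 3.09 and 4.00 CPM, then 30.0, 18.3 and 20.4 CPM. No 2 stages overlapped within a genotype. The log2 fold changes in Nanda were 4.25 (SE 0.51, edgeR adjusted p = 1.4e-06) by Day 7 and 2.94 (SE 0.35, edgeR adjusted p = 1.7e-06) from Day 7 to Day 21, and in Sadash 3.33 (SE 0.52, edgeR adjusted p = 4.0e-05) and 2.33 (SE 0.36, edgeR adjusted p = 2.6e-05). On Day 21 it was higher in Nanda than in Sadash (1.27, SE 0.32, edgeR adjusted p = 0.0058). The edgeR adjusted p was 0.014 to 0.031 when any Nanda library or Sadash replicate 2 or 3 of Day 21 was left out. On the TPM scale it was the second most abundant member, at a mean of 81.8 TPM in Nanda and 27.9 TPM in Sadash on Day 21.

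TraesCS4A02G470000, the first tested identifier, had no counts in Nanda on Day 0, then 0.895, 0.792 and 1.63 CPM on Day 7 and 6.41, 8.43 and 8.97 CPM on Day 21. In Sadash it had 0.068, 0.286 and 0.00 CPM, then 1.63, 0.302 and 2.67 CPM, then 21.8, 17.7 and 15.1 CPM. It was at least 5.42-fold higher on Day 7 than on Day 0 in Nanda (edgeR adjusted p = 0.00027), and the log2 fold change from Day 7 to Day 21 was 2.86 (SE 0.51, edgeR adjusted p = 0.00016) in Nanda and 3.56 (SE 0.49, edgeR adjusted p = 1.3e-05) in Sadash. It was not called between the genotypes at any stage.

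TraesCS4A02G486000 dipped on Day 7 in both genotypes. Nanda had 3.85, 2.95 and 2.19 CPM on Day 0, 0.256, 0.238 and 0.454 CPM on Day 7 and 10.4, 12.6 and 11.6 CPM on Day 21, and Sadash had 9.59, 11.0 and 9.94 CPM, then 0.00, 1.89 and 0.0702 CPM, then 4.20, 2.57 and 4.17 CPM. The log2 fold changes were -3.25 (SE 0.72) and 5.19 (SE 0.69) in Nanda and -3.93 (SE 0.62) and 2.49 (SE 0.63) in Sadash, with edgeR adjusted p-values of 0.00085, 5.0e-06, 4.0e-05 and 0.0025.

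TraesCS4A02G484800 and TraesCS4A02G498300 were genes of the early stages. TraesCS4A02G484800 had 5.23, 5.81 and 3.82 CPM in Nanda on Day 0, 4.22, 3.41 and 4.44 CPM on Day 7 and no counts on Day 21, and in Sadash 17.3, 19.1 and 13.4 CPM, then 12.6, 6.48 and 21.4 CPM, then 0.189, 0.143 and 0.00 CPM. Between Day 7 and Day 21 it fell at least 22.1-fold in Nanda (edgeR adjusted p = 6.4e-07) and with a log2 fold change of -6.74 (SE 0.57, edgeR adjusted p = 6.5e-08) in Sadash. TraesCS4A02G498300 had 2.18, 2.55 and 1.95 CPM in Nanda and 12.0, 5.43 and 8.74 CPM in Sadash on Day 0, and on Day 21 no counts in Nanda and at most 0.113 CPM in Sadash.

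The pyruvate transport gene TraesCS4A02G480900 also fell late in Nanda, with a log2 fold change from Day 7 to Day 21 of -1.80 (SE 0.23, edgeR adjusted p = 4.0e-06). In Sadash the value was -0.89 (SE 0.22), which missed the required fold, and the interaction was not called (-0.91, SE 0.32, edgeR adjusted p = 0.039). TraesCS4A02G481800 fell in Sadash over the same interval (-1.72, SE 0.16, edgeR adjusted p = 5.2e-08), where it had 11.6, 13.6 and 15.9 CPM on Day 7. The splicing gene TraesCS4A02G473400 and the translation gene TraesCS4A02G472200 were called in none of the transitions.

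The interaction term of the fit compared the change of a gene in Nanda with that in Sadash. By Day 7 (INT_D7_D0), 0 of 75 members were called with edgeR, where 7.41% of all tested genes were, 3.96% higher and 3.45% lower. At an unadjusted p under 0.05 there were 14, DESeq2 called 2, and limma-trend called 5 on log2(TPM + 1) and 7 on log2(TPM + 0.1). For the change from Day 7 to Day 21 (INT_D21_D7), 6 members were called higher and 2 lower in Nanda relative to Sadash, where 6.80% of all genes were higher and 9.40% lower, together 16.2%. The median interaction of the members was 0.72 on the log2 scale, and that of all tested low-confidence genes, in a fit that kept them, was 0.53. The median of all tested high-confidence genes is not given here, so the value does not set the members apart from the genome.

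Among these, TraesCS4A02G481400, annotated to vesicle targeting, which brings vesicles to the membrane they fuse with, changed order. On Day 7 it had 7.67, 9.98 and 12.4 CPM in Nanda, against 25.2, 15.8 and 21.9 CPM in Sadash. On Day 21 it had 18.7, 19.6 and 23.7 CPM in Nanda, against 11.6, 8.72 and 11.8 CPM in Sadash. Nanda lay below Sadash on Day 7 and above it on Day 21 without overlap, and the interaction was 2.00 (SE 0.27, edgeR adjusted p = 2.5e-05). The genotype difference on Day 21 alone, 0.93 (SE 0.19), missed the required fold.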

How the data were processed

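Total RNA of 18 libraries (6 groups of genotype and stage, 3 replicates each) was sequenced as paired-end reads. Trimming used Trimmomatic 0.39 and alignment to the IWGSC v1.1 reference used STAR 2.7.5a, per the study's methods. From RSEM 1.3.3 the authors deposited, for every transcript, an expected count and a TPM value. RSEM divides reads shared by near-identical copies, so values of such copies are uncertain. Expected counts were summed to high-confidence genes and rounded. The low-confidence genes, with between 5.14% and 6.88% of a library's counts, were left out of the main fit.

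Genes that reached 1 CPM in a library were fitted in edgeR 4.0.16 (quasi-likelihood test, TMM, all 18 libraries, one level per group), with 7 comparisons and 2 interactions, each adjusted over all 62692 tested genes. The fit was run on simulated data, where chosen genes differed in Nanda Day 0 only and all others had equal expected levels in every group. Unlike the real libraries, these held no other change between stages, and the outcome is not reported here. SE stands for standard error. Against a group without counts, a fold is a lower bound at a floor of 3 counts per library. Where the lower group held 1 to 3 counts, the ratio is given with an exact 95% interval, which covers counting error only. P-values measure the spread between replicates named as biological by the labels.

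The labels name no shared batch behind a replicate number. In NS_D21 the deviations of same-numbered libraries from their group means correlated at 0.19, 0.172 and 0.414, and 6 of 6 correlated best with their own number. The numbers may therefore pair the libraries there. The main fit used no pairing, and a replicate block was fitted only as an alternative.

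The members, lists and tests were chosen with earlier results of these data known. Members were named if they were among the 3 largest changes per comparison and direction (a mean of at least 5 CPM in a group, no overlap), lacked counts in 1 genotype, were called alike at 3 stages, were among the 5 most abundant, carried a description or GO term in the study's tables, or bounded the region or a run. Others, TraesCS4A02G474500, TraesCS4A02G475000, TraesCS4A02G482900, TraesCS4A02G483300, TraesCS4A02G484300, TraesCS4A02G486300, TraesCS4A02G496500 and TraesCS4A02G499000 among them, were named after their values were seen. Alternatives were DESeq2 1.42.0, RLE size factors, other filters, limma-trend (limma 3.58.1) on TPM, fits of only the libraries compared, a replicate block, low-confidence genes kept, each library left out, and 200 or 400 identifiers. R 4.3.3 and Python 3.11.15 were used. Gene coordinates and sequences of this annotation were not used here, and 0 of the identifiers matched the reference table at hand.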

Additional observations from a re-analysis of the deposited data

Results flagged for a closer look

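For 8 members the change from Day 7 to Day 21 differed between Nanda and Sadash by the test of the interaction itself (edgeR, adjusted over all tested genes), where 16.2% of all tested genes did. The interaction of TraesCS4A02G481400 was 2.00 and that of TraesCS4A02G485300 was 1.81 on the log2 scale, with the values given above. TraesCS4A02G485300 rose in Nanda by 1.13 (SE 0.12, edgeR adjusted p = 2.7e-07) and was not called in Sadash.

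TraesCS4A02G472300 had an interaction of 1.71 (SE 0.30, edgeR adjusted p = 0.00027), with a fall of the Sadash level by Day 21 that was called (-1.10, SE 0.18) while the change in Nanda was not. TraesCS4A02G495500 had 14.8, 14.7 and 15.2 CPM on Day 7 and 7.12, 6.54 and 8.90 CPM on Day 21 in Nanda, against 82.7, 40.7 and 110 CPM and 16.0, 15.7 and 13.5 CPM in Sadash. Its interaction was 1.38 (SE 0.35, edgeR adjusted p = 0.0054), and the Sadash libraries of Day 7 were spread more widely than the others. The call was lost without any 1 of 8 libraries (edgeR adjusted p = 0.010 to 0.020), and the interaction was 1.05 without Sadash Day 7 replicate 3. TraesCS4A02G498600 had an interaction of 1.38 (SE 0.26, edgeR adjusted p = 0.00046) and TraesCS4A02G495600 of 1.22 (SE 0.25, edgeR adjusted p = 0.00094). In these 6 genes the genotypes came closer together by Day 21 or changed order.

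The other 2 members moved apart. TraesCS4A02G486100 had an interaction of -2.19 (SE 0.31, edgeR adjusted p = 3.2e-05), with a rise in Sadash alone called (1.90, SE 0.21). TraesCS4A02G486300, named after its values were seen, had 1.60, 0.396 and 1.09 CPM on Day 7 and 0.237, 0.530 and 0.318 CPM on Day 21 in Nanda, against 0.856, 0.905 and 0.421 CPM and 4.08, 3.72 and 4.41 CPM in Sadash. Its interaction was -3.99 (SE 0.69, edgeR adjusted p = 0.00027).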

How the results depend on the processing

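Over the alternatives and comparisons, 4766 values of named genes kept their direction and side of the threshold, 204 lost the call, 52 gained it, and 0 reversed. With 200 identifiers in place of 300, fewer genes were tested (47) and the counts of called genes fell to 25 in NS_D0, 27 in NS_D7, 19 in NS_D21, 11 in ND21_D7 and 16 in SD21_D7. With only the libraries compared in the fit, 30 genes were called in NS_D7 and 8 in SD7_D0. The cause was not tested. For INT_D7_D0, where 0 were called, RLE size factors gave 1, the filter of 1 CPM in at least 3 libraries gave 2, DESeq2 gave 2, limma-trend gave 5 on log2(TPM + 1) and 7 on log2(TPM + 0.1), and 400 identifiers gave 2. For INT_D21_D7, where 8 were called, DESeq2 gave 13, and limma-trend gave 30 on log2(TPM + 1), of which 25 were higher, and 23 on log2(TPM + 0.1), of which 20 were higher. In ND21_D7, where 10 genes rose and 8 fell, limma-trend gave 11 and 5 or 18 and 8, and in ND7_D0, where 6 rose and 7 fell, it gave 4 and 5 or 4 and 9, with the pseudocounts of 1 and 0.1.

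Where the Sadash mean had to reach 1 CPM at some stage, 6 genes stayed under 0.1 CPM in all Nanda libraries. Only 1 of them had no Nanda counts. When the Nanda mean had to reach 5 CPM at some stage, 1 gene in place of 3 lacked Sadash counts. For these changed limits the shares of all tested genes are not given, so the counts do not set the members apart from the genome. The ratio of the summed levels, Nanda over Sadash, was 0.297 on Day 0 and 0.280 on Day 7 with TMM-normalized CPM, and 0.386 on Day 21 with TPM. Leaving out 1 library at a time gave 36 to 47 called genes in NS_D0, 43 to 48 in NS_D7, 29 to 39 in NS_D21, 10 to 14 in ND7_D0, 15 to 22 in ND21_D7, 9 to 15 in SD7_D0, 24 to 29 in SD21_D7, 0 to 2 in INT_D7_D0 and 7 to 10 in INT_D21_D7.

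In the comparisons other than NS_D21, deviations of same-numbered libraries correlated between -0.297 and 0.178. With 3 libraries in a group, such values cannot show whether the numbers pair the libraries there. With the replicate number as a block (replicate block), 12, 17, 12 and 27 genes were called in ND7_D0, ND21_D7, SD7_D0 and SD21_D7, 43, 47 and 36 in NS_D0, NS_D7 and NS_D21, and 0 and 8 in the interactions. In NS_D21 the block changed no call of a named gene. Genes under 1 CPM, 225 of the 300, limit what can be said of the region at this depth.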
